A study of Homo sapiens with 29 samples.

Results

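The regions described here are stretches of open chromatin that lacked a called peak in every library of parental 22Rv1 cells given 100 nM pladienolide B. 22Rv1 is a human prostate cancer cell line, and ATAC-seq measures open chromatin by letting a transposase insert adapters where DNA is accessible. Overlapping or touching peaks of all 29 libraries were merged into 166696 regions. Regions were chosen by the presence or absence of the deposited peak calls alone. A region was taken when it held a peak in 3 of 3 DMSO libraries, in 3 of 3 WX-02-43 libraries and in at least 1 of 3 WX-02-23 libraries of parental cells, and in 0 of 3 libraries with 100 nM pladienolide B. This left 601 regions. The conditions on DMSO, WX-02-43 and WX-02-23 alone were met by 63222 regions, called the reference regions below, so the 601 make up 0.951% of them. That share is fixed by the choice of the regions and is not a result.

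Parental cells gave 5 groups of 3 libraries: DMSO (0.1%), WX-02-23 (20 µM), WX-02-43 (20 µM), and pladienolide B (PladB) at 10 nM and at 100 nM. Engineered cells gave 7 groups of 2 libraries. All of these cells stably expressed Y36C-PHF5A, the vehicle groups included, and carried a FOXA1 transgene, WT-FOXA1 or C258A-FOXA1, induced by doxycycline (Dox). Each of the 2 lines received Dox with DMSO, with WX-02-23 (20 µM) or with PladB (100 nM), and the WT-FOXA1 line was also given DMSO without Dox. Every treatment lasted 3 h. The labels do not say whether a line is 1 clone or whether replicates are separate cultures, so the p-values below measure only the spread between these libraries. Endogenous FOXA1 and PHF5A are not stated to be removed.

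Pladienolide B binds the SF3b complex of the spliceosome, in a pocket formed by SF3B1 and PHF5A, and blocks the recognition of the intron branch point. The Y36C change of PHF5A lies in this pocket and is known to make cells resistant to pladienolides. FOXA1 is a pioneer transcription factor that opens enhancers in luminal prostate cells. WX-02-23 is a covalent ligand of FOXA1 at C258 that also binds SF3B1, and WX-02-43 is its stereoisomer used as a control. Peaks in ATAC-seq mark promoters, enhancers and other sites where regulatory proteins displace nucleosomes. Positions below refer to hg19. Genes and sequences at the regions are not analysed here.

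Each library was deposited as its own list of peaks, with 62832 to 98193 peaks outside the mitochondrial genome. The fold and p-value columns gave back, for every peak, the number of reads stacked at its summit (the summit pileup) and the local background. The genome-wide background, a relative measure of depth, was 0.705 ± 0.038 reads per base in the 100 nM libraries (SD, n = 3) and 0.935 ± 0.062 in parental DMSO (SD, n = 3). The exact two-sided permutation p of this difference was 0.1, the smallest that 3 against 3 libraries allow. All 3 libraries at 100 nM lay below every DMSO library, so depth moved with the treatment that defines the regions. Its part in their choice was not tested. The peak names place the parental lists in 1 processing folder and the engineered lists in another, so a difference in level between the parental and the engineered cells and one between these processing runs cannot be told apart. In bulk libraries a weaker site in every cell and a site lost from some cells also cannot be told apart.

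The 601 regions were weak sites in the DMSO cells that helped to choose them. Ranked by the authors' p-value within each DMSO list, with 100 as the strongest peak, their median percentile was 25.9 (quartiles 18.2 and 33.0). For all reference regions the median was 64.9. The median summit pileup over the 3 DMSO libraries was 13.3 reads (quartiles 11.3 and 17.3), against 28.3 for the reference regions. The authors' fold enrichment over local background had a median of 5.84, against 8.96. As merged over the peaks of all 29 libraries, the regions spanned 419 bp in the median (quartiles 340 and 530) and the reference regions 618 bp. The 601 lack peaks at 100 nM by the rule, so fewer peaks were merged and a narrower span partly follows from the choice. Widths of the DMSO peaks alone were not compared. At 36.3% of the 601 regions the local background in DMSO was that of the whole genome, whereas this held for 14.2% of the reference regions. The summits in the 3 DMSO libraries lay within 71 bp of each other in the median, against 51 bp.

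The share of reference regions that were missing at 100 nM fell with the rank in DMSO. Of the 194 reference regions below the 10th percentile, 30 were missing, or 15.5%. Between percentiles 20 and 30 the count was 211 of 4035, or 5.23%, and between 40 and 50 it was 58 of 7369, or 0.787%. Above the 60th percentile 2 of the 601 regions were found and above the 70th none. The missing regions were thus gathered in the weaker ranks of the DMSO lists.

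**Figure D1:**
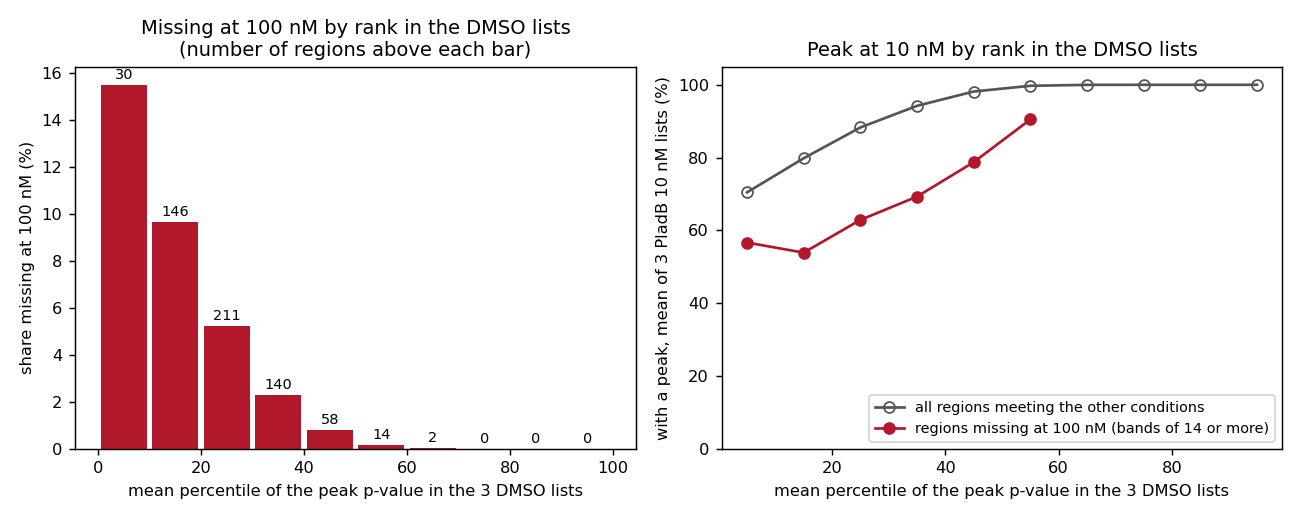
The left panel shows, for each band of 10 percentiles of the mean DMSO rank (x axis), the share of reference regions missing at 100 nM in percent (y axis), with the number of regions above each bar. The share falls from 15.5% in the weakest band to 0 above the 70th percentile. The right panel shows the mean share of regions with a peak in the 3 libraries at 10 nM, in percent, for all reference regions (open circles) and for the regions missing at 100 nM (filled circles, bands with 14 or more regions). The filled circles lie below the open ones in each band shown.

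Regions just outside the rule looked much alike. A peak in exactly 1 of the 3 libraries at 100 nM was held by 1599 reference regions, a peak in 2 by 4280 and in all 3 by 56742. The median DMSO percentile was 28.4 for those with 1 such library, 32.6 with 2 and 68.5 with all 3. Their median widths were 424, 432 and 647 bp. The highest-ranked region with a peak in only 1 library at 100 nM lay on chromosome 21 from 39358927 to 39359769, with summit pileups of 23, 23 and 19 reads in DMSO, 18, 17 and 17 reads at 10 nM, and 8 reads in replicate 2 at 100 nM. The next lay on chromosome 2 from 195864505 to 195864891, with 17, 26 and 18 reads in DMSO and 13, 15 and 13 reads at 10 nM, and 9 reads in replicate 3 at 100 nM. These DMSO values lie within the range of the strongest of the 601 regions.

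Pileups scaled from DMSO gave the following values. The scaling takes in signal at shared open sites as well as depth, and the part of each was not tested. The DMSO pileup of each region was scaled to each library at 100 nM by the median ratio at regions held by all 15 parental libraries. The scaled value had a median of 11.7, 11.2 and 10.5 reads in replicates 1, 2 and 3. The smallest pileup that would have passed the peak threshold at the local background of DMSO was 6 reads in the median in each of them. The scaled value was at least 2 times as high at 13.3%, 18.1% and 10.8% of the 601 regions. Since the rule asked for a peak in each DMSO library, that the scaled value reached the minimum was nearly fixed by the choice. The minimum is not a sufficient condition, since a peak must also be wide enough and counts vary. Of the reference regions scaled to less than 1.5 times the minimum, 61.6% to 66.7% held a peak in a library at 100 nM. The share was 80.7% to 83.2% at 1.5 to 2 times the minimum, and 96.5% to 96.9% at 2 to 3 times. Most of the 601 regions, 384, 391 and 386 by replicate, lay in the range from 1.5 to 2 times.

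The number of regions depended on list length and on single libraries. With all parental lists at the length of the shortest, and likewise the engineered lists, the rule gave 240 regions, and 209 of the 601 overlapped one of these. These 209 were the stronger ones, with a median DMSO percentile of 32.9, against 21.8 for the others. Shortening a list drops its weakest peaks, so this partly follows from the setting. The count rose to 1118, 1250 and 1034 without replicate 1, 2 or 3 at 100 nM, and to 918 without WX-02-43 replicate 3, whose background of 1.502 reads per base was the highest. Leaving out such a library loosens the rule, so the count could only stay or rise. Where all 3 WX-02-23 libraries had to hold a peak it was 315.

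The 10 regions with the highest mean rank in DMSO show what a strong member of the set looks like. The first lay on chromosome 8 from 128753821 to 128754731 and was 911 bp wide. Its summit pileup was 35, 41 and 38 reads in DMSO and 42, 52 and 38 reads after WX-02-43. It was 16 and 15 reads in WX-02-23 replicates 1 and 2, with no peak in replicate 3, and 14 reads in replicate 1 at 10 nM, with no peak in the other two. Vehicle and WX-02-43 libraries were high, WX-02-23 and 10 nM libraries low, without overlap, at a region picked for its high DMSO rank. The engineered libraries held this region after Dox and DMSO at 19 and 22 reads (WT-FOXA1) and 29 and 32 reads (C258A-FOXA1), and after PladB at 13 and 18 reads and at 15 and 22 reads. In read counts before scaling, PladB was below DMSO in each line. After WX-02-23 the WT-FOXA1 line had no peak in either library, and the C258A-FOXA1 line had 15 and 24 reads.

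The second region, on chromosome 12 from 59200523 to 59201013, held 22, 27 and 23 reads in DMSO and 16, 14 and 15 reads at 10 nM. It was as high after WX-02-23, at 32, 23 and 26 reads, and in every engineered library, where it ranged from 20 reads in a WT-FOXA1 DMSO library to 33 reads in a C258A-FOXA1 library with WX-02-23. The engineered PladB libraries held 26 and 25 reads in the WT-FOXA1 line and 22 and 27 reads with C258A-FOXA1. At this site the engineered PladB and DMSO libraries overlapped, while parental libraries at 10 nM lay below parental DMSO. Whether the cells differed was not tested.

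The region on chromosome 16 from 769804 to 770665 had the highest pileups of the 10, with 53, 65 and 59 reads in DMSO and 36, 31 and 33 reads at 10 nM. Its local background in DMSO was 17.2 times that of the genome, so its authors' fold was only 3.53 ± 0.34 (SD, n = 3). WX-02-23 libraries held 38, 40 and 35 reads there and WX-02-43 libraries 51, 58 and 61. The engineered PladB libraries held 42 and 47 reads (WT-FOXA1) and 35 and 37 reads (C258A-FOXA1), against 49 and 42 and 49 and 47 after DMSO. Before scaling, the groups overlapped in the WT-FOXA1 line and did not in the C258A-FOXA1 line, where the PladB libraries were also the shallower ones.

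The next 4 regions are given with their values at 10 nM. All 10 were picked for a high rank in the same DMSO libraries, so a lower value at 10 nM is partly set by that choice and is a description only. On chromosome 1 from 193641696 to 193642381 it went from 20, 21 and 16 reads in DMSO to 13, 8 and 9 reads at 10 nM. On chromosome 2 from 201323025 to 201323478 it went from 20, 22 and 21 reads to 13, 16 and 15. On chromosome 7 from 10608477 to 10608915 it went from 13, 26 and 15 reads to 10, 9 and 8, and 0 of 4 engineered DMSO libraries held this region. None of these 3 regions overlapped between DMSO and 10 nM. On chromosome 12 from 58735535 to 58735957 the groups overlapped, with 22, 21 and 16 reads in DMSO and 17, 15 and 13 at 10 nM.

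The remaining 3 differed among themselves. On chromosome 8 from 67815031 to 67815504 the DMSO libraries held 15, 21 and 16 reads, and 2 of 3 libraries at 10 nM held 11 and 14. On chromosome 17 from 59800416 to 59801002 they held 15, 15 and 21 reads, with 13 and 10 reads in 2 libraries at 10 nM, and 1 of 4 engineered DMSO libraries held it. The region on chromosome 3 from 195454313 to 195454895 was the exception among the 10, with 14, 19 and 19 reads in DMSO and 18, 18 and 21 reads at 10 nM. It was missing at 100 nM while 10 nM lay as high as DMSO. With lists of equal length, 9 of these 10 regions still met the rule, and the one that did not was the first, on chromosome 8 from 128753821.

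**Figure D2:**
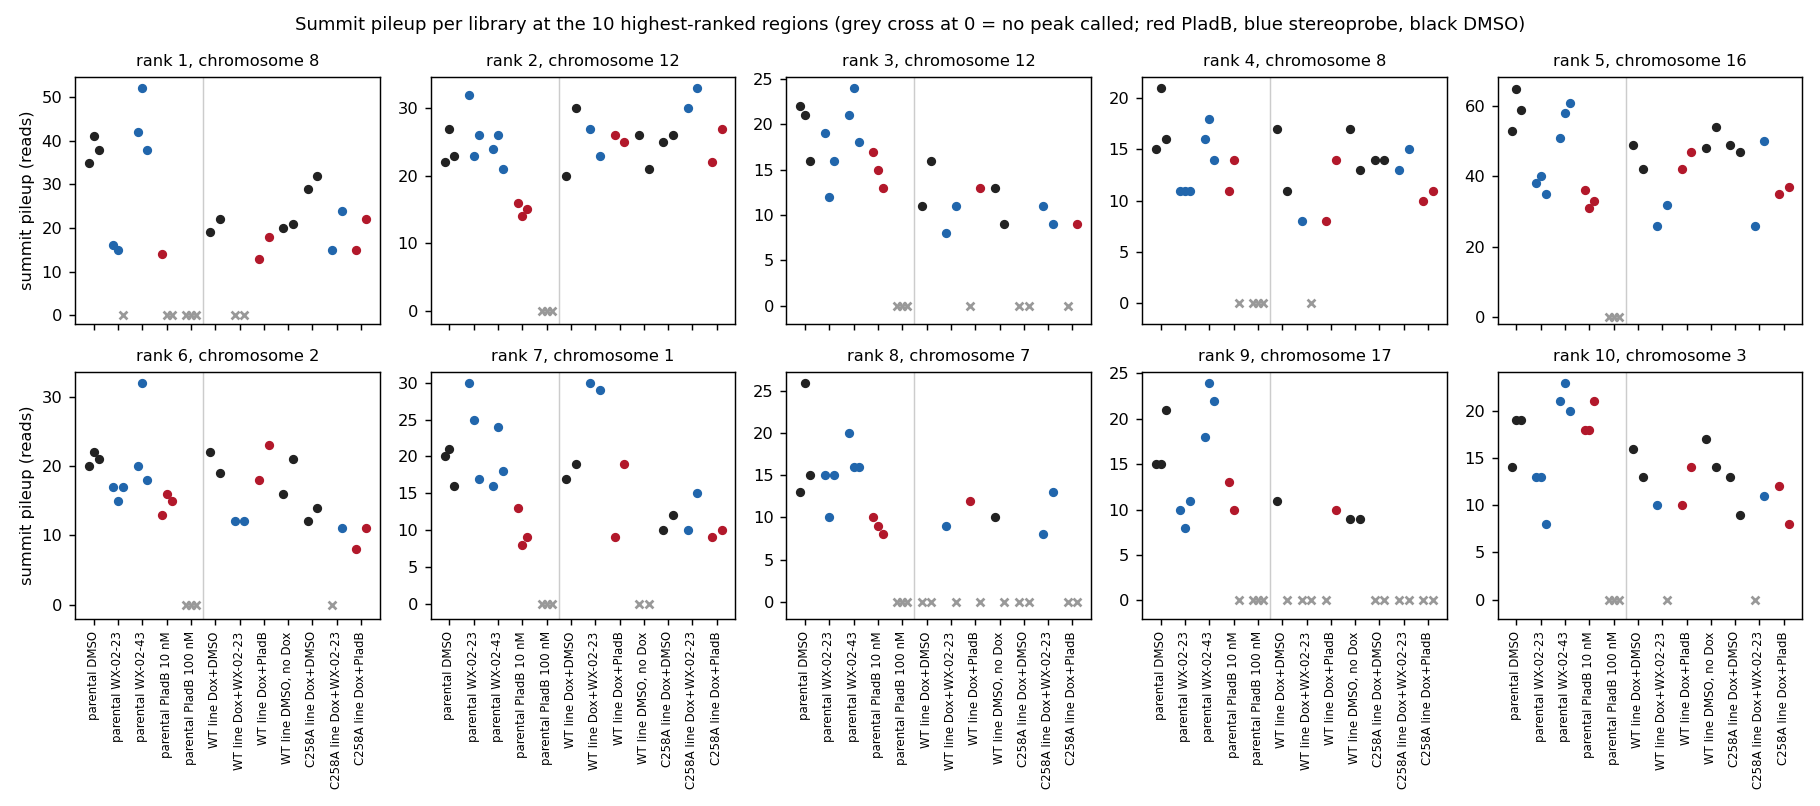
Each panel is 1 of the 10 regions with the highest DMSO rank. The y axis is the summit pileup in reads, the x axis the 12 groups, and each point 1 library (red PladB, blue WX-02-23 or WX-02-43, black DMSO); a grey cross at 0 marks a library without a called peak, which is not a measured 0. The regions were picked for a high DMSO rank, so the distance between DMSO and 10 nM is a description only; each of the 10 panels holds a peak in at least 1 engineered PladB library.

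The libraries at 10 nM did not enter the rule and show how the regions behaved at the lower dose. Of the 601, 76.4%, 61.7% and 54.1% held a peak in replicates 1, 2 and 3, a mean of 64.1% ± 11.3 (SD, n = 3). Over the reference regions the same libraries held 98.9%, 97.7% and 97.0%. The 601 regions were thus held less often than the reference in each library, while most were still called. DMSO stands at 100% by choice of the regions, so its distance from 10 nM was not tested. The genome-wide background at 10 nM, at 0.924, 0.843 and 1.016 reads per base, overlapped that of DMSO.

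By region, 193 of 601 held a peak in all 3 libraries at 10 nM, 220 in 2, 136 in 1 and 52 in none. No peak at 10 nM was found at 115 of the 63222 reference regions, or 0.182%, against 8.65% of the 601. Both counts rest on the same DMSO libraries. The regions still held in all 3 had a median DMSO percentile of 30.0 and those held in none 22.6, so the state at 10 nM moved with DMSO rank. Within ranks the 601 still differed from the reference: between DMSO percentiles 20 and 30, 62.9% of them held a peak at 10 nM on average, against 88.3% of the reference regions. Between 40 and 50 the values were 78.7% and 98.2%. These ranks come from DMSO libraries that also chose the regions, so the differences are a description only. Over all ranks, the mean share with a peak at 10 nM was 79.8% for reference regions with a peak in 1 library at 100 nM. It was 90.6% for those with a peak in 2. Where the scaled DMSO pileup was 2 to 3 times the smallest callable one, 83.4%, 69.5% and 69.4% of the 601 held a peak in replicates 1, 2 and 3, against 98.9%, 98.4% and 98.8% of the reference regions.

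Pileups at 10 nM were also lower where a peak was called. For each library pileups were scaled by shared regions, and a missing peak was counted as 0. All 3 values at 10 nM lay below all 3 DMSO values at 199 of the 601 regions, or 33.1%, against 8.59% of the reference regions. The rule asked for a peak in each DMSO library, so the 52 regions without any peak at 10 nM counted as lower by construction. That count thus partly repeats the peak calls. Among the 193 regions with a peak in all 3 libraries at 10 nM, all 3 values lay below DMSO at 37, or 19.2%. This was so at 7.89% of the 60000 reference regions of that kind. Both counts use DMSO libraries that helped to choose the regions and are descriptions only. The median log2 ratio of 10 nM to DMSO at these 193 was -0.14 (quartiles -0.29 and 0.05), and 130 of them lay below 0. It describes only regions strong enough to be called 3 times. The reference median was -0.0023. Regions with a peak in 1 or 2 libraries at 100 nM lay between, with medians of -0.09 and -0.04.

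**Figure D3:**
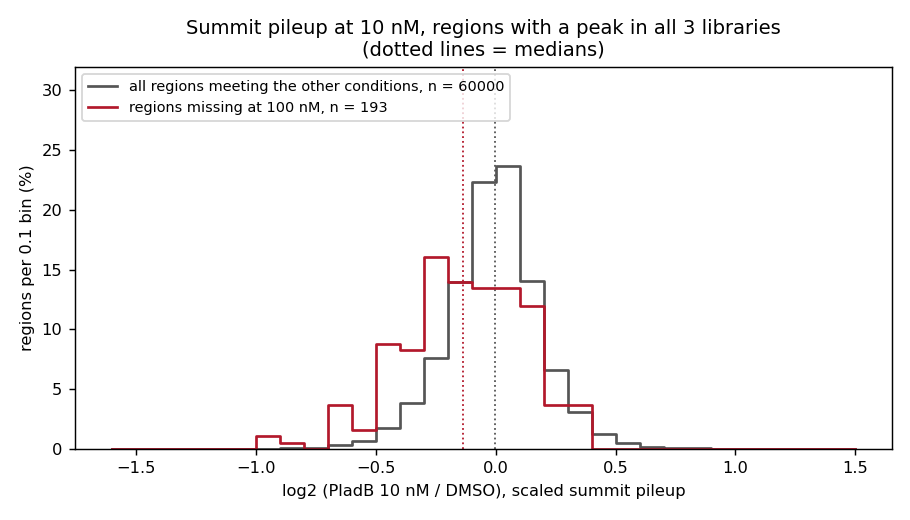
The x axis is the log2 ratio of the mean scaled summit pileup at 10 nM to that in DMSO, and the y axis the percent of regions per bin of 0.1, for regions with a peak in all 3 libraries at 10 nM. The red line (193 regions missing at 100 nM) is shifted to lower ratios than the grey line (60000 reference regions), with medians of -0.14 and -0.0023 as dotted lines.

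The 5 highest-ranked regions without any peak at 10 nM had DMSO percentiles of 30.8 to 36.4. On chromosome 10 from 59948996 to 59949418, DMSO libraries held 12, 15 and 12 reads, WX-02-23 libraries 10, 11 and 10, and WX-02-43 libraries 9, 9 and 13. On chromosome 18 from 42411628 to 42411984, DMSO libraries held 13, 13 and 14 reads and WX-02-43 libraries 16, 21 and 19. This region was found in 7 libraries in all and in no engineered one. On chromosome 15 from 48149341 to 48150076 the pileup was 10, 15 and 14 reads in DMSO and higher after WX-02-23, at 23, 22 and 29 reads, and after WX-02-43, at 16, 23 and 22 reads. Neither group overlapped DMSO, and no engineered library held the site. It was thus missing after PladB at both doses and higher after either of the other compounds.

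The other two of these 5 lay in stretches of raised background. On chromosome 13 from 58203608 to 58203840 the DMSO libraries held 32, 31 and 28 reads over a local background 7.45 times that of the genome. On chromosome 10 from 113339329 to 113339924 they held 21, 19 and 20 reads over a background 3.28 times that of the genome. At the first, 1 engineered PladB library held a peak and 0 of 4 DMSO libraries with Dox did. At the second, 2 of 4 libraries of each kind held one.

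WX-02-23 libraries, of which the rule asked only 1 of 3, held 81.9%, 72.0% and 75.9% of the 601 regions. The reference values were 98.3%, 97.1% and 97.6%. All 3 libraries held 315 regions, 2 held 150 and 1 held 136. The name of the set, missing after high PladB only, thus holds strictly for a part of it: many regions also lacked a peak in 1 or 2 WX-02-23 libraries or at 10 nM.

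In the engineered libraries 25.5% to 49.4% of the 601 regions held a peak. After Dox and DMSO, 45.4% and 42.9% of them held a peak with WT-FOXA1, and 39.8% and 41.3% with C258A-FOXA1. The reference regions stood at 87.3% and 85.5%, and at 83.4% and 85.0%. Without Dox the WT-FOXA1 line held 37.8% and 35.3% of the 601, lower than both libraries with Dox by 7.65 points in the mean. Over the reference regions this difference was 3.27 points. No engineered library held a peak at 128 of the 601 regions, or 21.3%, against 3.48% of the reference regions, and all 14 did at 30 regions, or 4.99%, against 57.8%.

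PladB at 100 nM, which left none of the 601 called in parental cells by the rule, left many called in the engineered cells. In the WT-FOXA1 line 34.3% and 46.4% held a peak after PladB, a mean of 40.3% ± 8.6 (SD, n = 2), against 44.2% ± 1.8 (SD, n = 2) after DMSO. The difference of -3.83 points was smaller than the spread between libraries, and the reference regions moved by -3.35 points. Without WT-FOXA1 PladB replicate 1, which had 71121 peaks against 88735 in replicate 2, the difference was 2.25 points, and without replicate 2 it was -9.90. In the C258A-FOXA1 line 30.8% and 34.1% held a peak after PladB, a mean of 32.4% ± 2.4 (SD, n = 2), against 40.5% ± 1.1 (SD, n = 2). That difference of -8.07 points was larger than the spread between libraries, and the groups did not overlap. The reference regions moved by -4.20 points and did not overlap either. They stood at 79.3% and 80.8% after PladB and at 83.4% and 85.0% after DMSO. Regions just outside the rule fell in this line too. Those with a peak in 1 parental library at 100 nM went from 45.9% after DMSO to 36.6% after PladB in the mean. Those with a peak in 2 went from 55.25% to 45.96%. In the WT-FOXA1 line both classes also fell, the second from 59.5% to 51.8% ± 14.1 (SD, n = 2). Whether the 601 differed from these classes was not tested.

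Depth moved with PladB in the C258A-FOXA1 line, where the background was 0.546 and 0.587 reads per base after PladB and 0.750 and 0.866 after DMSO. With lists of equal length the change was 2.71 points with WT-FOXA1 and -0.208 with C258A-FOXA1, and with peaks at a q-value of 1e-05 or below the WT-FOXA1 change was -6.09. Whether the lines differed was not tested. These shares are averages over regions chosen with results of these data known, so no p-value is given for them.

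WX-02-23 moved the 601 regions in the WT-FOXA1 line more than PladB did. There 32.4% and 25.5% held a peak, a change of -15.2 points from DMSO, and the reference regions changed by -14.5 points. In the C258A-FOXA1 line 35.9% and 49.4% held a peak, a change of 2.16 points, within the spread between libraries, against -2.45 points in the reference regions. In the WT-FOXA1 line the 601 regions and the reference thus fell by similar numbers of points. They started from unlike shares, 44.2% and 86.4% after DMSO.

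**Figure D4:**
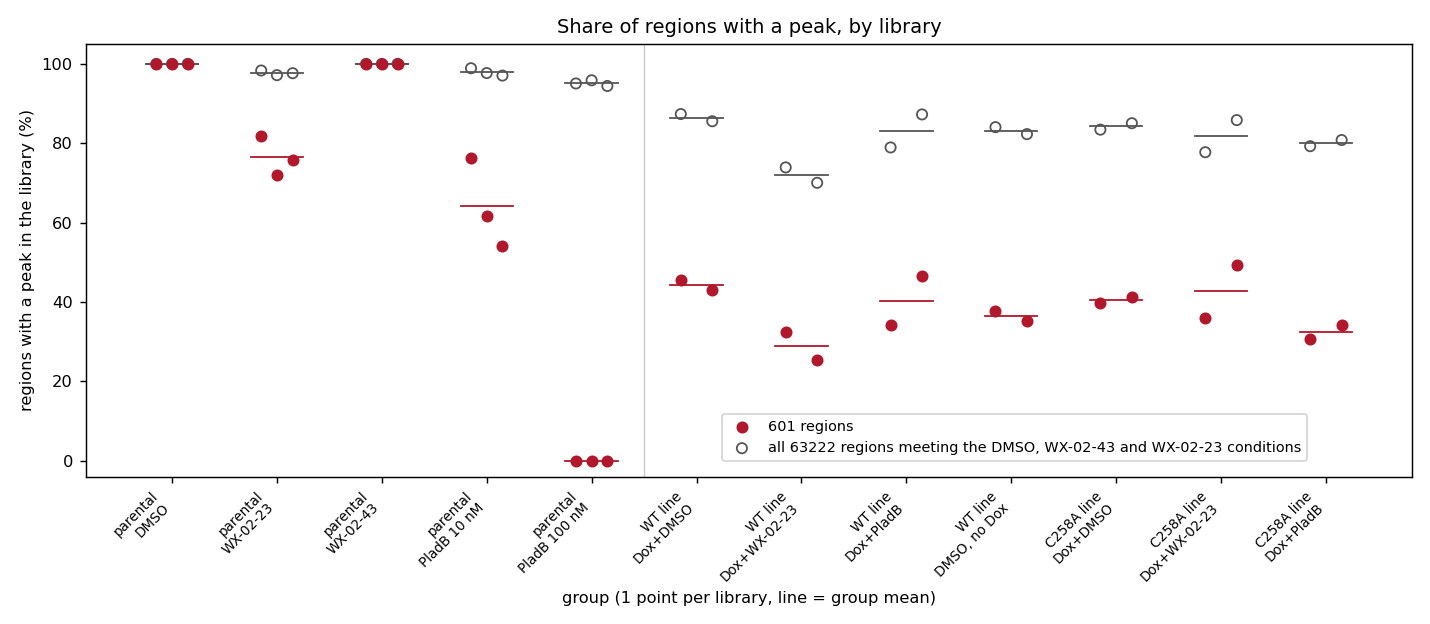
Percent of regions with a peak (y axis) in each of the 29 libraries by group (x axis), 1 point per library with a line at the group mean. Filled circles are the 601 regions, which stand at 100% in DMSO and WX-02-43 and at 0% at 100 nM by the rule; open circles are the 63222 reference regions. At 10 nM the filled circles lie between 54.1% and 76.4%, and in the engineered PladB libraries between 30.8% and 46.4%.

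Calls by region gave the same order. A region was called lost in a line when both DMSO libraries with Dox and neither treated library held it. In the WT-FOXA1 line 201 of the 601 were held by both DMSO libraries, and PladB left 144 of them in both libraries, 40 in 1 and 17 in none. The 17 lost are 8.46%. PladB loss was called at 4.45% of all regions held by both DMSO libraries of that line and at 1.59% of the reference regions among them. In the C258A-FOXA1 line 176 were held by both DMSO libraries, and PladB left 109 in both, 41 in 1 and 26 in none. These 26 are 14.8%, against 6.60% of all regions and 2.37% of the reference regions.

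WX-02-23 was called to have lost 52 of the 201 in the WT-FOXA1 line, or 25.9%, against 16.5% of all regions and 9.58% of the reference regions. In the C258A-FOXA1 line it lost 13 of 176, or 7.39%, against 3.85% and 1.95%. The shares among the 601 lay above both backgrounds for either treatment, and the 601 are weaker in rank than the reference. The part of rank in these shares was not tested.

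Over both lines, 129 of the 601 held a peak in 4 of 4 DMSO libraries with Dox, and 83 of these also in 4 of 4 PladB libraries. Over all regions the share was higher: of 58800 held by the 4 DMSO libraries, 49050 were held by the 4 PladB libraries too. PladB libraries held fewer peaks than DMSO libraries at 173 regions (28.8%), more at 94 (15.6%) and the same number at 334. Over the reference regions the shares were 16.0% fewer and 5.81% more. Loss in both lines, with 4 of 4 DMSO and 0 of 4 PladB libraries, was found at 2 of the 129. Over all 58800 regions held by the 4 DMSO libraries it was found at 242, or 0.412%. The share among the 129 was the higher one but rests on 2 regions, and the part of rank in it was not tested.

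Those 2 regions were weak. On chromosome 7 from 14808907 to 14809263 the parental DMSO libraries held 16, 10 and 10 reads and the engineered DMSO libraries 9, 9, 10 and 8. It had no peak in any of the 10 libraries with PladB, at either dose and in any of the cells. On chromosome 2 from 85672819 to 85673361 the parental DMSO libraries held 13, 12 and 9 reads and the engineered DMSO libraries 8, 10, 9 and 10, and 1 library at 10 nM held 9 reads. With 8 to 10 reads these sites stood near the lowest summit called in a library, which was 5 to 8 reads.

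**Figure D5:**
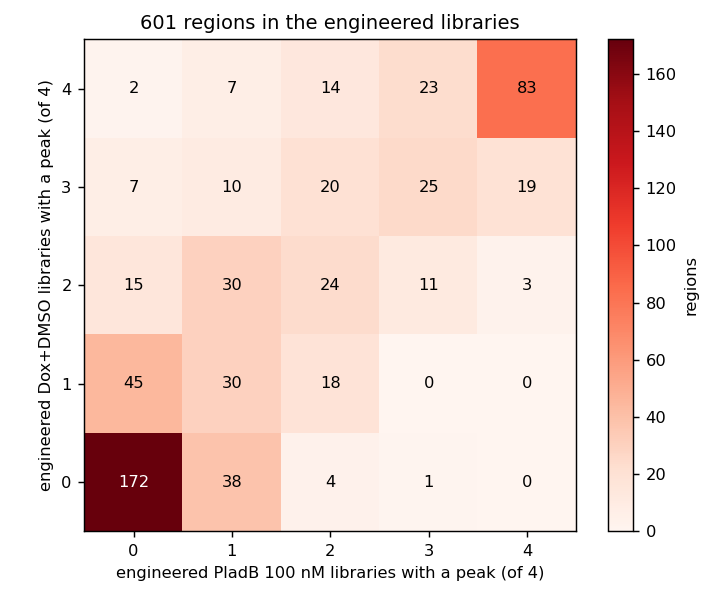
Number of the 601 regions by how many of the 4 engineered DMSO libraries with Dox (y axis) and of the 4 engineered PladB libraries (x axis) held a peak; the colour gives the same number as the figure in each cell. The largest cells are 172 regions with none of either and 83 with all of both, and 2 regions stand at 4 DMSO and 0 PladB libraries.

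Summit pileups allowed a test in the engineered cells that the rule did not use. limma was fitted on log2 of the scaled pileup plus 1 read at all 49050 regions with a peak in each of the 8 engineered DMSO and PladB libraries with Dox, with the line as a covariate. At an adjusted p below 0.05 limma called 10 regions, or 0.0204%. Of the 601, only the 83 held by all 8 could be tested, and none was called. Of the 129 held by all 4 DMSO libraries, the 2, 7, 14 and 23 regions with a peak in 0, 1, 2 and 3 of the 4 PladB libraries were left out, so the fit leaves out regions that lost a call after PladB. An unadjusted p below 0.05 was reached by 6 of the 83, 4 of them lower and 2 higher after PladB. That is 7.23%, against 7.68% of all regions tested. At none of the 49050 regions did limma call a difference between the lines in their PladB change (0.00%). For that difference 4 of the 83 had an unadjusted p below 0.05, or 4.82%, against 5.65% of all regions tested. The difference in level between the lines was only fitted as a covariate and is not reported.

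The smallest p of the 83 belonged to a region that was higher after PladB, on chromosome 4 from 134101232 to 134101721, with a log2 change of 0.36 (SE 0.13) and a limma adjusted p of 0.476. The chromosome 8 region from 128753821 to 128754731 had the smallest p among those that were lower. Its log2 change was -0.39 (SE 0.16), with a limma adjusted p of 0.526, so it did not pass the test. The chromosome 12 region from 59200523 to 59201013 had a log2 change of 0.17 (SE 0.14) and a limma adjusted p of 0.84, and the chromosome 16 region from 769804 to 770665 one of -0.05 (SE 0.10) and a limma adjusted p of 0.952. At the chromosome 3 region from 195454313 to 195454895 the change was -0.04 (SE 0.19), with a limma adjusted p of 0.987. None of these 5 passed the threshold. A p that misses the threshold does not show that the values were equal.

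The regions were spread over the genome. Chromosome 5 held 47 of them among 3345 reference regions, or 1.41%, the highest share of the autosomes, and chromosome 21 held 4 of 737, or 0.543%, the lowest. Chromosome 1 held the most, 53 of 6345, or 0.835%. The median distance to the nearest other member of the set was 1480030 bp, and 232 of the 601 had another within 1 Mb. A region held by all 29 libraries lay within 5 kb of 146 of the 601, or 24.3%, against 18.0% of the reference regions, and the median distance to one was 20827 bp against 19442.5 bp. The nearest region held by all 3 libraries at 100 nM lay at a median of 9398 bp (lower quartile 2549 bp), against 11179.5 bp (lower quartile 4596 bp) for the reference regions. Of the 63222 reference regions, 56742 were themselves held by all 3 libraries at 100 nM, and each distance left the region itself out. Many were likewise held by all 29 libraries. The 601 can be neither by the rule, so these distances are not alike and no conclusion is drawn from them.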

How the data were processed

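Per the labels' protocols, an ATAC-Seq kit was used for all libraries. The submitters' processing notes list Bowtie2, MACS2 and hg19, without versions or options. The authors deposited 1 peak list per library, with a score, a fold enrichment (ratio) over local background, the −log10 of the p-value and of the q-value, and the summit offset. Peaks outside the mitochondrial genome were used, and a peak overlapping a region by 1 bp or more counted as held. Summit pileups were solved from fold and −log10 p (misfit below 0.001 for 100% of peaks), taken from the strongest peak of a region, and scaled by median ratios at regions held by all 15 parental or all 14 engineered libraries with a mean of at least 20 reads. Depth in total reads is unknown, so values rest on pileups of 5 reads and more.

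Members and lists were chosen with earlier results of these data known. Named regions are the 10 members with the highest mean DMSO percentile, and 5 (or all, where fewer) of each class described, by the same rank; the 2 regions just outside are the first of 5. The limma fit, the pileups and the 10 nM comparison of pileups were added after seeing the data. Scripts were tested on simulated data. Software was R 4.3.3 with limma 3.58.1, and Python 3.11.15 with scipy 1.17.1, pandas 2.3.3, numpy 2.4.6 and matplotlib 3.10.9. Alternatives were a q-value of 1e-05, equal lists, 50% of a region covered, summit windows of 100 bp each side, other WX-02-23 conditions, a fold of at least 4 (added later), a replicate block, and leaving out each library. Motifs, genes and marker loci were planned and are not analysed here.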

Additional observations from a re-analysis of the deposited data

How the results depend on the processing

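Depth is one limit: a site with fewer than 5 to 8 reads at its summit was not detectable. Lists of equal length gave 240 regions, a WT-FOXA1 PladB change that reversed to 2.71 points and a C258A-FOXA1 change of -0.208 points. A peak in all 3 WX-02-23 libraries gave 315 regions. Leaving out 1 library gave 541 to 1250 regions, a share at 10 nM of 57.9% to 72.4%, a WT-FOXA1 change of -9.90 to 2.25 points and a C258A-FOXA1 change of -9.73 to -6.41 points. The other definitions gave 473 to 805 regions. The overlap with the 601 was 289 with a q-value of 1e-05 or below, 177 with 50% of a region covered and 587 with summit windows. The 199 regions lower at 10 nM became 195 when scaled by list background and 226 to 277 when a library was left out. With fewer libraries non-overlap is easier to reach, so that rise says nothing about stability. The shares of reference regions under these settings are not given. In the pileup fit 0 members were called under every setting run, while the count over all regions was 5 with a mean of at least 20 reads and 0 to 35 without 1 library (35 without WT-FOXA1 PladB replicate 2, 2 without C258A-FOXA1 PladB replicate 2, and 0 without C258A-FOXA1 PladB replicate 1 or either C258A-FOXA1 DMSO replicate). Same-numbered libraries shared only a number (r of deviations -0.024 to 0.027 in parental pairs, -0.014 to 0.018 in engineered ones): with the replicate block the background difference stayed -0.230 with an exact permutation p of 0.25, the smallest it allows, and the fit called the same number, 10 regions and 0 members.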

Other observations

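Neighbouring pairs, 8 regions of the 601 in all, lay within 10 kb of each other. On chromosome 6, the region from 23446693 to 23447046 held a peak in 3 of 3 libraries at 10 nM and the one from 23450542 to 23450844, 3495 bp away, in 1. On chromosome 22, the region from 37956369 to 37956725 held a peak in 3 of 3 libraries at 10 nM and the one from 37966134 to 37966606, 9408 bp away, in 0. The pairs on chromosome 2 (from 100676209 and from 100683339) and chromosome 4 (from 89132930 and from 89140241) stood at 1 and 3 and at 1 and 2 of 3 libraries. These pairs were singled out after their values were seen.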
